A study of Mus musculus with 6 samples.

Results

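The Wnt pathway genes described here are 53 listed genes that encode Wnt ligands, their receptors, secreted antagonists, R-spondins and their receptors, pathway targets and the Wnt secretion machinery. They were chosen by name, and a gene counted as measured when 1 of its probes gave a signal well above background on 2 or more of the 6 arrays. This left 51 of the 53, among 16440 genes measured in all. The ligand gene Wnt2b and the R-spondin receptor gene Lgr6 were above background on 0 arrays.

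The series measured RNA of CD45-negative lung cells, that is, lung cells depleted of leukocytes, after silica was given to mice by aspiration. The WT mice were C57BL/6J and the Ccr2KO mice B6.129S4-Ccr2tm1Ifc/J, which lack the monocyte chemokine receptor CCR2. Each genotype was sampled untreated (day 0), at day 28 and at day 40 after silica, from mice 7 to 9 weeks old at the start. The controls of both genotypes were untreated, and no group given vehicle alone is labelled. No untreated group at day 28 or day 40 is labelled either, so silica and added age cannot be told apart. Per the labels, perfused lungs were digested, a Percoll gradient cleared red cells and silica, and magnetic separation gave the CD45-negative fraction. The RNA of each group was pooled from 3 biological replicates and read on 1 one-colour array, so the spread between animals was not measured.

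Wnt proteins are secreted, lipid-modified ligands that bind Frizzled receptors together with the co-receptors LRP5 and LRP6 and stabilise β-catenin, or signal without it to the cytoskeleton. Secreted Frizzled-related proteins and WIF1 bind the ligands, Dickkopf proteins block the co-receptors, and R-spondins raise the number of Frizzleds at the surface by holding back the ubiquitin ligases RNF43 and ZNRF3. In the lung, Wnt signals pass between mesenchyme, epithelium and mesothelium in development and repair.

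Values below are log2 signals after subtraction of the array's own 75th percentile, and they compare a probe with itself between arrays, not genes with each other. The 75th percentile of the signal was 793 to 1180 and the share of probes above background 58.2 to 64.4%. Ccr2 read 0.09, 1.38 and −1.70 in WT (untreated, day 28, day 40) and −5.07, −1.51 and −3.64 in Ccr2KO cells. It was lower in Ccr2KO on each day, but the difference of −3.33 ± 0.66 (SE) did not pass (limma adjusted p = 0.415). Ccr2 was above background on all 6 arrays, the Ccr2KO ones included, and its Ccr2KO day 28 value was above the WT day 40 value. Where the probe lies relative to the deleted sequence was not given. Ptprc, which encodes CD45, was above background on all 6 arrays, between −0.61 and 2.62, and was highest at day 28 in both genotypes. With 1 array per group, the error behind each p-value is the scatter about an additive model of genotype and day, with 2 residual degrees of freedom.

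With the 4 silica arrays set against the 2 untreated arrays (days and genotypes averaged), 12 of the 51 Wnt pathway genes rose, 11 fell and 28 did not pass an adjusted p of 0.05 over all genes. Of all 16440 genes, 10.5% rose and 9.28% fell, 19.8% together. The median change of the 51 genes was 0.12 on the log2 scale, beside −0.01 for all genes, and the median size regardless of sign was 0.62 beside 0.28. Rises and falls were mixed within most roles. Of 13 ligands, 4 rose and 4 fell. Of 12 receptors, 3 rose and 1 fell, and of 10 antagonists 4 rose and 1 fell. Among 8 genes of the R-spondin axis, 1 rose and 2 fell. Of 6 targets and feedback genes, 3 fell and 0 rose (3 of the 6 had an unadjusted p below 0.05). Among these falls, that of Nkd2 held for its brightest probe only, with the second probe at 0.89. Neither of the 2 secretion genes passed.

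Each silica array was at least 2-fold over the untreated array of its genotype for 8 of the 51 genes, namely Wnt5a, Wnt6, Wnt10a, Fzd10, Sfrp1, Sfrp4, Frzb and Dkk2 (3.38% of all genes). It was at least 2-fold under for 3, Wnt3a, Wnt7a and Dkk1 (1.65% of all genes). The 4 silica arrays all lay above both untreated arrays for 16 of the 51 genes (21.1% of all genes) and all below for 15 (24% of all genes). For 45 of the 51 genes the signal was above background on all 6 arrays, and 19 of these 45 passed. Wnt3a and Dkk1 met the background criterion through the untreated arrays alone, and Frzb through the silica arrays alone, so a difference in these 3 was in part fixed by the criterion. The 23 genes that passed had adjusted p from 0.00654 to 0.0497. The slide row as a block, or leaving out the WT day 28 or the Ccr2KO day 28 array, gave 0 called genes among the 51 and among all genes, with 1 residual degree of freedom in these fits. Leaving out any other single array lowered the falls from 11 to 6 or 7. The fits that left out another single array also had 1 residual degree of freedom, and they kept part of the calls. Within slide row 1, which held Ccr2KO day 28 and both untreated arrays, all 23 kept their sign (Ccr2KO day 28 minus untreated). The silica test that picked these 23 used this same difference, so the kept sign cannot separate row from silica. Row 2 held both WT silica arrays, so in WT cells row and silica cannot be told apart.

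**Figure D1:**
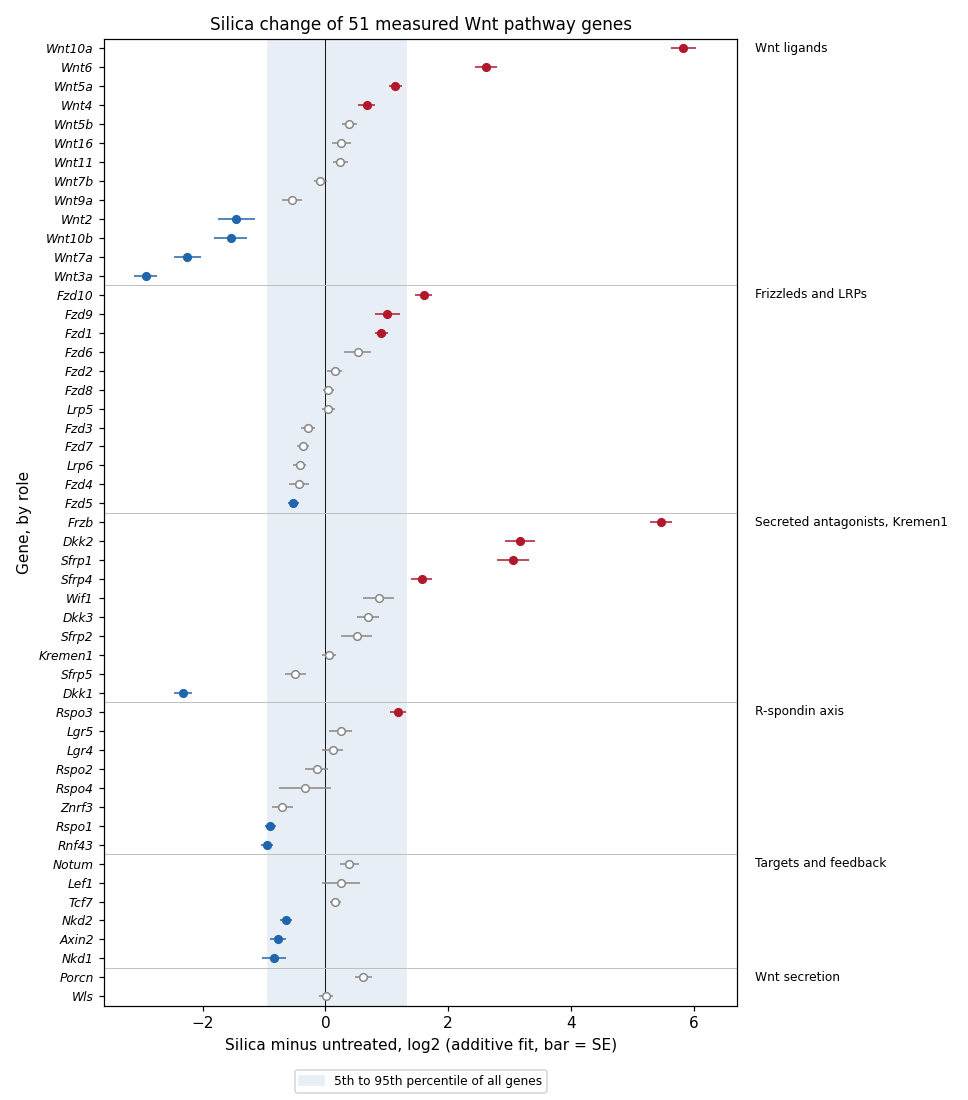
Silica minus untreated on the log2 scale (horizontal axis) for the 51 measured Wnt pathway genes, ordered by role and size, from the additive fit. Points are estimates and bars SE, red points rose, blue points fell, open points did not pass, and the shaded band spans the 5th to the 95th percentile of all 16440 genes, from −0.93 to 1.32; Wnt10a and Frzb lie farthest to the right and Wnt3a farthest to the left.

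Among the ligands, Wnt10a, which signals through β-catenin in skin, tooth and fat cell development, had the largest rise. It read −5.85, −0.90 and 0.15 in WT (untreated, day 28, day 40) and −5.04, 0.53 and 1.79 in Ccr2KO cells, and was not well above background on the untreated WT array. All 4 silica arrays were far above both untreated ones. The silica change was 5.83 ± 0.20 on the log2 scale (adjusted p = 0.00654), an estimate that includes the reading not above background. In Ccr2KO cells, where the untreated array was above background, day 28 and day 40 were 5.57 and 6.82 higher.

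Wnt6, expressed in epithelia and the neighbour of Wnt10a on chromosome 1 with 0 protein-coding genes between them in GRCm38.p6, read −3.91, −1.95 and −1.27 in WT cells and −3.55, −1.05 and −0.21 in Ccr2KO cells. Its silica arrays did not overlap the untreated ones, and the change was 2.61 ± 0.18, 6.12-fold (adjusted p = 0.00778). This was the 93rd largest rise among 14935 genes above background on all arrays.

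Wnt5a, the main ligand of β-catenin-independent signalling, read −0.01, 1.20 and 1.07 in WT cells and 0.47, 1.58 and 1.64 in Ccr2KO cells. Days 28 and 40 were alike within each genotype and lay above both untreated arrays. It rose 2.21-fold (1.14 ± 0.10, adjusted p = 0.00938). Wnt4, a ligand of kidney and gonad development, read 0.26, 0.70 and 0.89 in WT cells and 0.68, 1.16 and 1.79 in Ccr2KO cells. It rose 1.59-fold (0.67 ± 0.14, adjusted p = 0.0464), and its lowest silica array was only just above the untreated Ccr2KO one.

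The ligands that fell were Wnt3a, Wnt7a, Wnt10b and Wnt2. Wnt7a, an epithelial ligand, read −1.66, −3.66 and −3.73 in WT cells and −1.57, −3.59 and −4.47 in Ccr2KO cells. Every silica array lay below both untreated arrays, and the change of −2.25 ± 0.22 (4.76-fold lower, adjusted p = 0.011) was the 34th largest fall among the 14935 genes above background on all arrays. Wnt3a, a potent activator of β-catenin, read −4.12, −7.35 and −6.45 in WT cells and −3.97, −7.19 and −6.92 in Ccr2KO cells. It was above background on the untreated arrays alone and at least 2.23-fold lower after silica (means −4.05 and −6.98, adjusted p = 0.00761), a bound set by the lowest signal above background on each array.

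Wnt10b, a ligand that restrains fat cell formation, read −2.18, −4.04 and −4.12 in WT cells and −2.03, −3.62 and −2.81 in Ccr2KO cells, with Ccr2KO day 40 the highest silica array. It fell by 1.54 ± 0.27, 2.91-fold (adjusted p = 0.03). Wnt2, a mesenchymal ligand of early lung development, read −2.63, −3.49 and −4.06 in WT cells and −2.32, −4.37 and −3.81 in Ccr2KO cells. All silica arrays were below the untreated ones, and the fall was 1.45 ± 0.30, 2.74-fold (adjusted p = 0.0409).

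The other 5 measured ligands did not pass, with changes from −0.54 to 0.39. Wnt9a, next to Wnt3a on chromosome 11, was at −0.54 ± 0.16 (adjusted p = 0.0866), and Wnt5b, a relative of Wnt5a, at 0.39 ± 0.12 (adjusted p = 0.102). Wnt7b, Wnt11 and Wnt16 were at −0.08, 0.24 and 0.26. With normexp background correction, which draws dim signals together, the changes were smaller for Wnt10a (3.93), Wnt6 (1.95), Wnt2 (−0.84), Wnt7a (−1.45), Wnt10b (−0.95) and Wnt3a (−0.62), and all of these still passed. With the slide row as a block Wnt2 was at −2.32 (adjusted p = 0.255).

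Beside the ligands that fell, 6 of 7 measured type 1 alveolar markers fell (Ager, Hopx, Aqp5, Akap5, Emp2 and Clic5), and the list mean was 4.87 and 5.24 untreated and 3.52 to 3.90 after silica. Beside the ligands that rose, all 7 activated fibroblast markers rose and 4 of 7 basal and squamous markers rose (Krt5, Krt14, Krt17 and Ngfr). Markers of blood and of other epithelium moved too, with 5 of 5 platelet, 3 of 3 erythroid and 6 of 8 type 2 alveolar markers falling and 4 of 5 neutrophil markers rising. The neutrophil markers that rose were highest at day 28. In WT cells at day 40, S100a8, S100a9 and Cxcr2 read 3.69, 5.29 and −3.27, beside 3.71, 5.52 and −2.25 untreated, while Mpo stayed above untreated. In Ccr2KO cells at day 40, only Cxcr2 of these genes was below untreated. Fewer cells of a type and less RNA per cell cannot be told apart in such bulk RNA, and the part of cell types in the ligand changes was not tested.

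**Figure D2:**
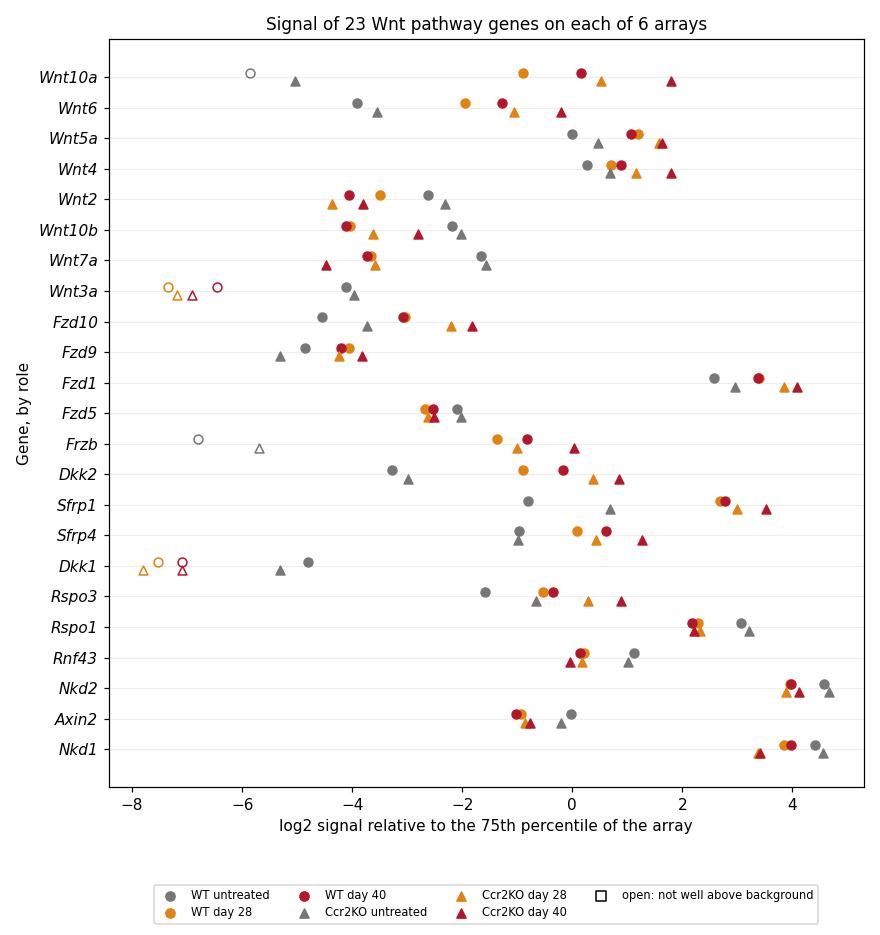
Signal of a gene in log2 units, less the 75th percentile of the array (horizontal axis), for the 23 Wnt pathway genes that passed the silica test. Each symbol is 1 array, circles WT and triangles Ccr2KO, grey untreated, orange day 28 and red day 40, and open symbols were not well above background. Silica and untreated symbols are separate in every gene shown, with a gap of about 4 or more log2 units in Wnt10a and Frzb and under 1 unit in Nkd1 and Fzd5.

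Among the receptors, 3 Frizzled genes rose and 1 fell, while the co-receptors did not pass. Fzd10, normally restricted to few adult tissues, read −4.54, −3.04 and −3.08 in WT cells and −3.73, −2.21 and −1.83 in Ccr2KO cells. Silica arrays were above both untreated arrays, by 3.02-fold on average (1.60 ± 0.14, adjusted p = 0.00942). Fzd1, which can couple to β-catenin signalling, read 2.58, 3.39 and 3.38 in WT cells and 2.96, 3.84 and 4.09 in Ccr2KO cells. It rose 1.88-fold (0.91 ± 0.11, adjusted p = 0.0164), with the arrays of the 2 treatments apart.

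Fzd9, a Frizzled known from bone and nervous tissue, read −4.86, −4.06 and −4.20 in WT cells and −5.32, −4.24 and −3.82 in Ccr2KO cells, higher on each silica array than on both untreated ones. The change was 1.01 ± 0.20, 2.01-fold (adjusted p = 0.0392). Fzd5, an epithelial and endothelial receptor, read −2.1, −2.68 and −2.54 in WT cells and −2.02, −2.62 and −2.51 in Ccr2KO cells, nearly the same in both genotypes. It fell by 0.52 ± 0.09, 1.44-fold (adjusted p = 0.0295). Its second probe was at −0.26, with the Ccr2KO day 40 array (−2.76) above both untreated arrays (−3.00 in WT and −2.85 in Ccr2KO).

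The 8 receptor genes that did not pass had changes from −0.43 to 0.53. Fzd4, the endothelial receptor for norrin, was at −0.43 ± 0.16 (adjusted p = 0.141), and Fzd6, used in planar polarity, at 0.53 ± 0.22 (adjusted p = 0.161). Of the co-receptors, Lrp5 was at 0.05 ± 0.11 (adjusted p = 0.778) and Lrp6 at −0.42 ± 0.11 (adjusted p = 0.0662). The probes of Fzd7 differed in sign, at −0.36 (adjusted p = 0.0739) for the brighter and 0.19 for the other. With normexp correction Fzd9 was at 0.49 and Fzd10 at 0.96, both still passing.

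Of the antagonists, 4 secreted inhibitors rose and Dkk1 fell. Frzb, the secreted Frizzled-related protein also called SFRP3, read −6.81, −1.37 and −0.83 in WT cells and −5.70, −1.0 and 0.03 in Ccr2KO cells. Neither untreated array was above background and all silica arrays were. It was at least 28.4-fold higher after silica (means −6.25 and −0.79, adjusted p = 0.00654), and with normexp correction its change was 2.85 in place of 5.46. Dkk2, a Dickkopf protein that binds LRP co-receptors, read −3.27, −0.90 and −0.17 in WT cells and −2.99, 0.38 and 0.85 in Ccr2KO cells. It rose 9.01-fold (3.17 ± 0.24, adjusted p = 0.00855), the 41st largest rise among the 14935 genes above background on all arrays.

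Sfrp1, a Wnt-binding inhibitor made by mesenchymal cells, read −0.81, 2.68 and 2.77 in WT cells and 0.68, 3.00 and 3.52 in Ccr2KO cells. The untreated arrays of the genotypes were farther apart than the silica arrays, yet all silica arrays were higher, by 8.32-fold (3.06 ± 0.26, adjusted p = 0.00937). Sfrp4, of the same family, read −0.96, 0.09 and 0.62 in WT cells and −0.98, 0.43 and 1.27 in Ccr2KO cells. The untreated arrays were nearly equal, and the rise was 2.98-fold (1.57 ± 0.17, adjusted p = 0.0123).

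Dkk1, the best known LRP-blocking inhibitor and itself a β-catenin target, read −4.80, −7.53 and −7.10 in WT cells and −5.32, −7.80 and −7.10 in Ccr2KO cells. It was above background on the untreated arrays alone, so the fall is given as at least 1.1-fold (means −5.06 and −7.38, adjusted p = 0.00761). With normexp correction the change was −0.44 and still passed. The fall of Dkk1 was in part fixed by the background criterion, so it is not set against the rise of Dkk2. Dkk3, a divergent family member, was at 0.70 ± 0.18 (adjusted p = 0.0664).

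At day 40 alone Dkk3 passed, 2.03-fold over untreated (1.02 ± 0.21, adjusted p = 0.0471), with 3.76, 4.50 and 4.90 in WT cells and 4.88, 4.90 and 5.80 in Ccr2KO cells. Wif1, which binds Wnt ligands directly, read 0.24, 0.47 and 0.79 in WT cells and 0.17, 1.40 and 1.62 in Ccr2KO cells. Its silica arrays did not overlap the untreated ones, but the change of 0.87 ± 0.25 did not pass (adjusted p = 0.0815). Sfrp2 was at 0.51 ± 0.25 (adjusted p = 0.218), Sfrp5 at −0.49 ± 0.17 (adjusted p = 0.116), and Kremen1, a Dickkopf receptor, at 0.06 ± 0.12 (adjusted p = 0.722). Sfrp2 was highest on the Ccr2KO day 40 array, at 2.18, and lowest on the WT day 28 array, at 0.86.

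The activated fibroblast markers moved with the antagonists that rose. All 7 of these genes (Cthrc1, Postn, Tnc, Lrrc15, Fap, Acta2 and Grem1) rose, with list means of −1.28 and −1.12 untreated and 1.17 to 2.87 after silica. Of these only Lrrc15 was not above background on the untreated arrays, and it was at least 36.0-fold higher after silica. Of 10 general fibroblast markers 4 rose and 3 fell, with list means of 4.69 to 4.88 on all 6 arrays. Among other lists, 4 of 7 basal and squamous and 4 of 5 neutrophil markers also rose. The part of these cell types in the antagonist changes was not tested.

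**Figure D3:**
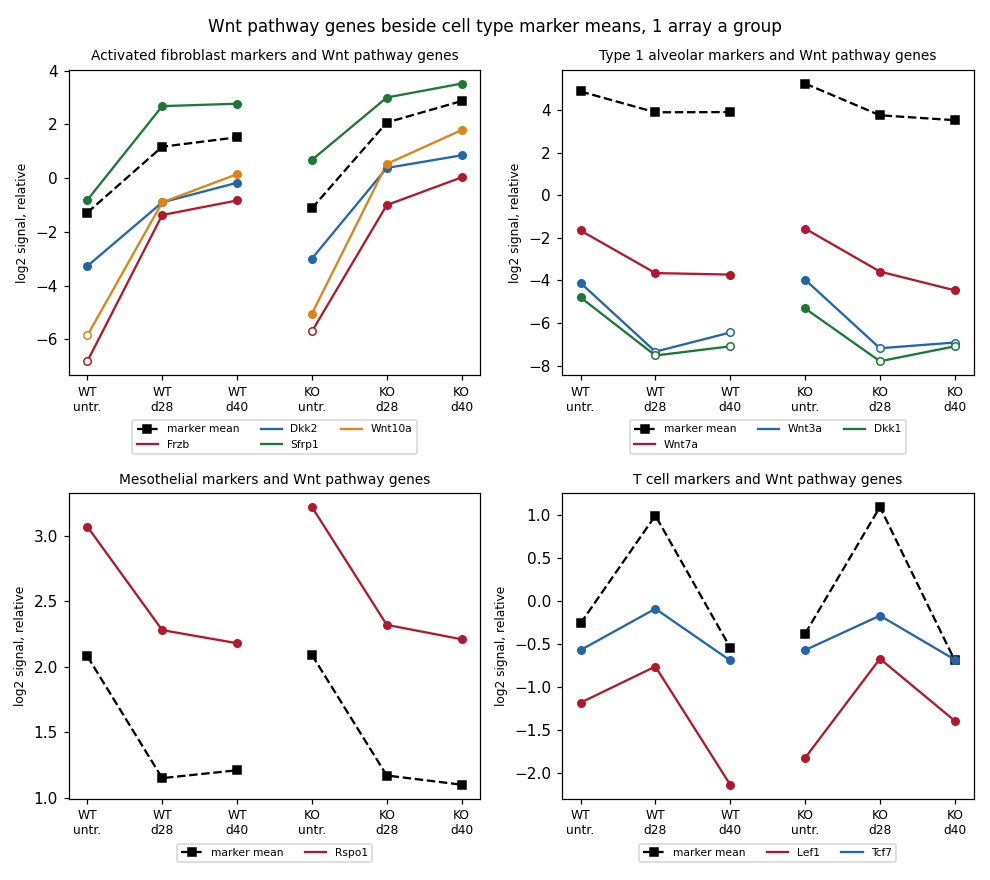
Mean log2 signal of a marker list on each of 6 arrays (black squares, dashed), 1 panel each for activated fibroblast, type 1 alveolar, mesothelial and T cell markers, beside named Wnt pathway genes (coloured lines, open symbols not well above background); the vertical axes are log2 signal less the 75th percentile of the array. Frzb, Dkk2, Sfrp1, Wnt10a and the activated fibroblast mean are higher after silica, Wnt7a, Wnt3a, Dkk1 and the type 1 alveolar mean lower, and Lef1, Tcf7 and the T cell mean are highest at day 28. Wnt3a and Dkk1 met the background criterion through the untreated arrays alone and Frzb through the silica arrays alone. Their differences were in part fixed by that criterion.

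Promoter sequence is shown for Frzb and Dkk2, which rose, for Wnt7a and Dkk1, which fell, and for the standard target gene Axin2. The sequences are the 250 bases before the RefSeq start on GRCm38.p6, read 5′ to 3′ on the strand of the gene. Capitals mark a match to CTTTGAT or CTTTGAA, core forms of the site bound by TCF and LEF factors, searched on both strands. The forms share their first 6 letters and cannot both match at one position on one strand. Coordinates and strands are chr2:80447397-80447646, minus (Frzb), chr3:132085042-132085291, plus (Dkk2), chr6:91411354-91411603, minus (Wnt7a), chr19:30549497-30549746, minus (Dkk1), and chr11:108920099-108920348, plus (Axin2).
Frzb: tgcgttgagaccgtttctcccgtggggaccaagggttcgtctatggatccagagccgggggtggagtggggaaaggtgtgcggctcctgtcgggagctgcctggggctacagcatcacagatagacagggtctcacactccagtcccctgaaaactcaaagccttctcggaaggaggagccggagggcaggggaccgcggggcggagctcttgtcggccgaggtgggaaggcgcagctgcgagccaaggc
Dkk2: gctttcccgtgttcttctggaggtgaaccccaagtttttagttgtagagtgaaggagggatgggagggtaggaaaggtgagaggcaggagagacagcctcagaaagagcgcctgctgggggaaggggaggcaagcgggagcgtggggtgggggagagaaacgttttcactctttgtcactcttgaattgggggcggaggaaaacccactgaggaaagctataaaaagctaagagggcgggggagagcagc
Wnt7a: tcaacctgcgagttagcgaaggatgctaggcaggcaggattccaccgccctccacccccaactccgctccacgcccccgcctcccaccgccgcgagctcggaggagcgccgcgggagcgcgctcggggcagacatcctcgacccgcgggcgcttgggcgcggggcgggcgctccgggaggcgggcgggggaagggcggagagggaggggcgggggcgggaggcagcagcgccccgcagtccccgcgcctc
Dkk1: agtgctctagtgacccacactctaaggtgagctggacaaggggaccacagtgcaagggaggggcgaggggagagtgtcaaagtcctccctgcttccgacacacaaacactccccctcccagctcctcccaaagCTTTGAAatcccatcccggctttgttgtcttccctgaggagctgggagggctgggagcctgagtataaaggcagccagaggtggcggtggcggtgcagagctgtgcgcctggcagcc
Axin2: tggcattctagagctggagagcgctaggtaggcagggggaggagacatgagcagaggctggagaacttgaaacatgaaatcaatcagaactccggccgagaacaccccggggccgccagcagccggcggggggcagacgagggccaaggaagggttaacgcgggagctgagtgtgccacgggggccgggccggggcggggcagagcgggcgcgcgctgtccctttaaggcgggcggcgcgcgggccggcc

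The one match among these 5 promoters was a CTTTGAA in Dkk1, on the strand of the gene, ending 111 bases before the start. Of the 53 listed genes, 34 were matched to 42 promoters in the RefSeq table. A match was found in 3 of the 34 genes (Dkk1, Wnt11 and Wnt5b), beside 8.63% of all 27025 genes and 7.48% of all 32851 promoters of the same length in the table. The median GC content was 64.8% (44.4 to 87.6%) over the promoters of the listed genes and 52.4% over all promoters. These matches describe letters in a window and not bound sites.

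In the R-spondin axis, the R-spondin genes differed in direction. Rspo1, a secreted R-spondin, read 3.07, 2.28 and 2.18 in WT cells and 3.22, 2.32 and 2.21 in Ccr2KO cells, nearly the same in both genotypes. It fell by 0.90 ± 0.09, 1.86-fold (adjusted p = 0.0122). Rspo3, an R-spondin of mesenchyme and endothelium, read −1.58, −0.54 and −0.35 in WT cells and −0.66, 0.29 and 0.89 in Ccr2KO cells. All silica arrays lay above both untreated ones, the lowest by a small margin, and the rise was 2.28-fold (1.19 ± 0.13, adjusted p = 0.0124).

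Rnf43, which encodes a ubiquitin ligase that removes Frizzleds and is a β-catenin target, read 1.12, 0.21 and 0.14 in WT cells and 1.02, 0.17 and −0.05 in Ccr2KO cells. It fell by 0.95 ± 0.10, 1.93-fold (adjusted p = 0.0115), without overlap. Its relative Znrf3 was at −0.70 ± 0.17 and did not pass (adjusted p = 0.0588), although its silica arrays also lay below both untreated arrays. Rspo2 was at −0.14, the receptor genes Lgr5 and Lgr4 at 0.25 and 0.12, and Rspo4 at −0.33 ± 0.42 (adjusted p = 0.6). Rspo4 was above background on 4 arrays and Lgr4 on 5.

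Mesothelial markers moved with Rspo1. Of 7 such markers 5 fell (Upk3b, Wt1, Lrrn4, Gpm6a and Krt19), and the list mean was 2.08 and 2.09 untreated and 1.1 to 1.21 after silica. All 7 were above background on all 6 arrays. The fall was not particular to mesothelial markers. Among type 1 and type 2 alveolar markers, 6 of 7 and 6 of 8 fell, as did 5 of 5 platelet and 3 of 3 erythroid markers. The part of these cell types in the Rspo1 change was not tested.

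Among the targets and feedback genes, Axin2, the most widely used readout of β-catenin signalling, read −0.03, −0.93 and −1.03 in WT cells and −0.20, −0.86 and −0.76 in Ccr2KO cells. It fell by 0.78 ± 0.13, 1.72-fold (adjusted p = 0.0269), and its second probe was at −0.73. Nkd1, a feedback inhibitor that binds Dishevelled, read 4.42, 3.85 and 3.98 in WT cells and 4.56, 3.37 and 3.41 in Ccr2KO cells. It fell by 0.84 ± 0.19, 1.78-fold (adjusted p = 0.0497, second probe −0.73), and without the untreated Ccr2KO array it was at −0.50 (adjusted p = 0.125). On the brightest probe both genes were lower on every silica array than on either untreated array. The second Nkd1 probe read −0.07 on the WT day 28 array, above both untreated arrays (−0.13 in WT and −0.36 in Ccr2KO).

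Nkd2, its relative, read 4.58, 3.95 and 3.97 in WT cells and 4.67, 3.89 and 4.12 in Ccr2KO cells and fell by 0.64 ± 0.10, 1.56-fold (adjusted p = 0.0244) on its brightest probe. A second probe was at 0.89, and the mean of both at 0.12 (adjusted p = 0.462), so the direction of Nkd2 depended on the probe. Of the 11 genes with several probes, Nkd2 and Fzd7 were those whose probes differed in sign.

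The transcription factor genes Lef1 and Tcf7, which are β-catenin partners and are also highly expressed in T cells, did not pass after silica. Lef1 read −1.18, −0.76 and −2.13 in WT cells and −1.82, −0.67 and −1.39 in Ccr2KO cells (0.26 ± 0.31, adjusted p = 0.575). Tcf7 read −0.57, −0.09 and −0.69 in WT cells and −0.57, −0.17 and −0.68 in Ccr2KO cells (0.16 ± 0.09, adjusted p = 0.269). Both were highest on the day 28 array of each genotype. The mean of 8 measured T cell markers had the same shape, at −0.26, 0.99 and −0.54 in WT cells and −0.38, 1.09 and −0.69 in Ccr2KO cells. All 8 were above background on all arrays and 3 rose after silica (Cd3e, Cd3g and Lck). This shape was not particular to T cell markers. The day 28 mean was also the highest of each genotype for pan-leukocyte (3.95 in WT, 3.42 in Ccr2KO), neutrophil (3.98 and 4.59) and B and plasma cell markers (2.28 and 1.80). The part of these cells in the Lef1 and Tcf7 values was not tested. Notum, a secreted enzyme that strips the lipid from Wnt ligands, was at 0.39 ± 0.16 (adjusted p = 0.16).

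Of the secretion genes, Porcn, the enzyme that adds the lipid to Wnt ligands, read 2.02, 2.28 and 2.61 in WT cells and 2.12, 2.65 and 3.21 in Ccr2KO cells. Its change of 0.62 ± 0.14 missed the threshold (adjusted p = 0.0508), but its silica arrays did not overlap the untreated ones, and at day 40 alone it passed (0.84 ± 0.16, adjusted p = 0.042). Wls, the carrier of Wnt ligands to the cell surface, was at 0.01 ± 0.12 (adjusted p = 0.944).

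Of 107 further pathway genes in 5 lists, 94 were measured. Of these, 17 rose and 11 fell (10.5% and 9.28% of all genes) and 66 did not pass, with a median change of −0.01. Of 15 measured non-canonical receptors and planar polarity genes, 2 rose and 4 fell, beside the same shares of all genes. The Wnt5a receptor genes Ror2 (1.43 ± 0.17, adjusted p = 0.0144) and Ror1 (0.80 ± 0.12, adjusted p = 0.0217) rose. The polarity gene Prickle1 (−1.31 ± 0.11, adjusted p = 0.00901) and the formin gene Daam2 (−1.07 ± 0.17, adjusted p = 0.0263) had the largest falls of the list, which had a median of −0.02.

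Of 15 other extracellular modulators, 5 rose and 3 fell (10.5% and 9.28% of all genes), with a median of 0.24. Apcdd1, a membrane inhibitor of Wnt signalling, rose by 1.48 ± 0.15 (adjusted p = 0.0118), and Sulf1, a heparan sulphate sulfatase, by 1.30 ± 0.21 (adjusted p = 0.0261). The antagonist gene Sost was at least 3.29-fold lower after silica (adjusted p = 0.0086), being above background on the untreated arrays alone, through which it also met the background criterion, so that its difference was in part fixed by that criterion. Ndp, the gene of the Fzd4 ligand norrin, was at −0.99 ± 0.16 (adjusted p = 0.0251) and above background on 3 arrays. Its co-receptor gene Tspan12 fell by 0.84 ± 0.12 (adjusted p = 0.019).

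Of 37 cytoplasmic and nuclear core genes, 33 did not pass, with a median of −0.16. In this list 1 rose and 3 fell (10.5% and 9.28% of all genes). Ctnnbip1, an inhibitor of β-catenin binding to TCF, rose by 1.0 ± 0.09 (adjusted p = 0.0105). Btrc, the ubiquitin ligase subunit that recognises β-catenin, fell by 0.97 ± 0.20 (adjusted p = 0.0402), the co-repressor gene Tle1 by 0.69 ± 0.11 (adjusted p = 0.0272) and Pygo1, a β-catenin cofactor, by 0.63 ± 0.10 (adjusted p = 0.0241).

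Of 25 measured genes commonly used as targets, 9 rose and 1 fell (10.5% and 9.28% of all genes). The other 15 did not pass, and the median was 0.61. Those that rose most were the mesenchymal transcription factor gene Twist1 (2.88 ± 0.22, adjusted p = 0.00864, above background on 5 arrays), the matricellular gene Ccn4 (2.79 ± 0.12, adjusted p = 0.00659), the mitotic gene Birc5 (2.34 ± 0.12, adjusted p = 0.00756) and Sox9, a progenitor and cartilage factor (1.84 ± 0.12, adjusted p = 0.00761). These genes also serve in fibroblasts, dividing cells and cartilage outside Wnt signalling. Tnfrsf19 fell by 0.92 ± 0.14 (adjusted p = 0.0245). Axin2, Nkd1 and Rnf43 fell on arrays on which Ccn4 and Twist1 rose. In the list of other Wnt ligands neither of 2 measured genes passed, with Wnt1 at −0.08 and Wnt9b at 1.56 ± 0.48 (adjusted p = 0.0941).

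Each time point was also set against untreated, with the 2 comparisons sharing the untreated arrays. At day 28, 10 of the 51 Wnt pathway genes rose and 9 fell (9.17% and 8% of all genes), and at day 40, 13 rose and 7 fell (8.5% and 6.71% of all genes). An unadjusted p below 0.05 was reached by 30 of the 51 at day 28 (35.5% of all genes) and by 34 at day 40 (34.3% of all genes). Between day 40 and day 28, 0 of the 51 passed in limma (2.73% of all genes, 0.201% higher and 2.52% lower), while 14 had an unadjusted p below 0.05 (16.2% of all genes). Those with the smallest p were the receptor gene Fzd8 (0.57 ± 0.10, adjusted p = 0.102), Tcf7 (−0.56 ± 0.11, adjusted p = 0.112) and Wnt10a (1.15 ± 0.23, adjusted p = 0.126). Without either untreated array Wnt10a passed this comparison.

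Between genotypes, 0 of the 51 genes passed in limma (0% of all genes), and 17 had an unadjusted p below 0.05 (9.28% of all genes). Ccr2KO was above WT on all 3 days for 25 of the 51 genes (19.6% of all genes) and below on all 3 for Fzd4 and Rnf43, 2 genes (13.3% of all genes). The 25 comprised 7 of 13 ligands, 7 of 12 receptors, 5 of 10 antagonists, 4 of 8 R-spondin axis genes, both secretion genes and 0 of 6 targets. The median Ccr2KO minus WT difference of the 51 genes was 0.15 untreated, 0.17 at day 28 and 0.35 at day 40, beside 0.05, −0.01 and 0.04 for all genes. Under the other scalings, filters and probe choices the number above WT on all 3 days was 21 to 26.

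The differences with the smallest p were in Rspo3, Fzd10 and Wnt10a. Rspo3 differed by 0.92, 0.84 and 1.24 (untreated, day 28, day 40), for a genotype term of 1.0 ± 0.12 (unadjusted p = 0.000912, adjusted p = 0.381). Fzd10 differed by 0.81, 0.84 and 1.26 (0.97 ± 0.13, adjusted p = 0.381), and Wnt10a by 0.81, 1.44 and 1.64 (1.30 ± 0.19, adjusted p = 0.381). In Rspo3 and Fzd10 the difference was there in untreated cells and no smaller at day 40. The untreated difference of Wnt10a rests on a WT reading not well above background, so its size is not known. Sfrp1 differed most in untreated cells, by 1.48, then by 0.31 and 0.75, and Dkk2 least there, by 0.27, then by 1.27 and 1.02. On no day was Fzd4 higher in Ccr2KO, with differences of −0.74, −0.19 and −0.16. A 2-fold difference on all 3 days was found in 0 of the 51 genes (0.14% of all genes over and 0.116% under). Quantile normalization made this 1, Wnt10a. Leaving out either untreated array made it 2, Wnt10a and Dkk2, but then only day 28 and day 40 were compared. In untreated cells Dkk2 was not 2-fold apart (0.27). The untreated Wnt10a difference read 0.81, but its size is not known, as said above.

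Several marker lists also differed between genotypes. The pan-leukocyte mean was lower in Ccr2KO on all 3 days, untreated cells included, at 2.65, 3.95 and 1.44 in WT (untreated, day 28, day 40) beside 1.48, 3.42 and 0.93 in Ccr2KO. The genotype term was negative for all 8 pan-leukocyte genes, from −0.87 to −0.53, and each was above background on all 6 arrays. The activated fibroblast means in untreated cells were −1.28 in WT and −1.12 in Ccr2KO. On the silica arrays these means were 1.17 and 1.52 in WT cells and 2.07 and 2.87 in Ccr2KO cells. Basal and squamous markers averaged −1.01 and −0.55 in WT cells and −0.68 and 0.30 in Ccr2KO cells after silica. The part of these cell types in the genotype differences was not tested.

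**Figure D4:**
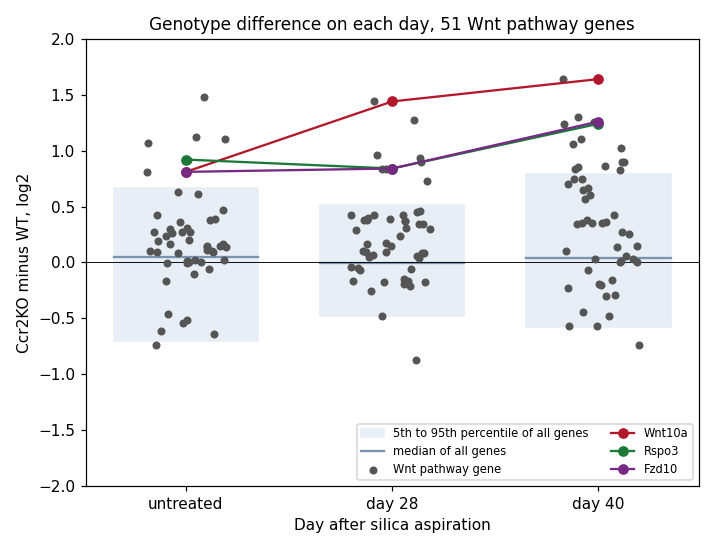
Ccr2KO minus WT on the log2 scale (vertical axis) for the 51 measured Wnt pathway genes in untreated cells, at day 28 and at day 40. Each grey point is 1 gene, coloured lines follow Wnt10a, Rspo3 and Fzd10, and bands span the 5th to the 95th percentile of all genes with their median as a line. Of the 51 genes 39, 37 and 38 lie above 0, beside 58, 48 and 55.7% of all genes.

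The silica responses of the genotypes were compared in a fit with their product, in which days 28 and 40 stood in for replicates. Of the 51 genes 0 passed in limma (0% of all genes) and 2 had an unadjusted p below 0.05 (3.76% of all genes). These were Wif1, whose silica change was larger in Ccr2KO by 0.94 ± 0.32 (unadjusted p = 0.0442, adjusted p = 1), and Nkd1, whose fall was deeper in Ccr2KO by −0.67 ± 0.23 (unadjusted p = 0.0444, adjusted p = 1). In Wif1 the silica arrays of Ccr2KO were above those of WT while the untreated arrays were close. On single arrays, a 2-fold rise over untreated was found in 9 and 10 of the 51 genes in WT (day 28, day 40) and in 11 and 16 in Ccr2KO cells, beside 9.13, 7.79, 9.36 and 8.95% of all genes. A 2-fold fall was found in 5 and 5 in WT and in 7 and 7 in Ccr2KO cells, beside 5.57, 6.19, 5.99 and 5.8% of all genes. Both silica arrays of one genotype lay above and both of the other below their untreated array for Rspo4 and Lgr4, 2 of the 51 genes (8.75% of all genes).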

How the data were processed

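The deposited scanner files held the intensity of 62976 spots on each of 6 one-colour Cy3 arrays. Per the file headers, the authors extracted background-subtracted, detrended intensity with Feature Extraction 11.0.1.1 (protocol GE1_1100_Jul11, design 028005, annotation build mm9), and the submitters' processing notes name R 2.15.1. The authors' deposited values of log2 intensity, with 30574 probes without scaling between arrays, served as an alternative (largest difference from the scanner values 5e-09). Its array medians were 9.39 to 9.82 in WT and 9.23 to 9.53 in Ccr2KO cells, with genes not centred.

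Control spots were left out and outlier spots (109 to 195 per array) set to missing. Spots of a probe were averaged, and the 75th percentile of each array was subtracted from its log2 intensity. There were 0 saturated spots. RefSeq names and GRCm38.p6 gave 1 symbol to 27509 of 55681 probes. Probes well above background on at least 2 arrays were kept, 35 with a missing value left out, and the brightest probe of a gene was used. Where no array of the lower side was above background, a fold is "at least", each such array counting at the higher of its own signal and the lowest signal of probes above background there. Arrays limit the precision by their number.

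Tests were run in R 4.3.3 (package data.table, version 1.17.8) by lmFit and eBayes of limma 3.58.1, over all 16440 genes with Benjamini-Hochberg adjustment at 0.05. An additive fit of day and genotype had 2 residual and 2.22 prior degrees of freedom. The fit of genotype by silica had 2 and 1.87. Figures were drawn with Python 3.11.15 and matplotlib 3.10.9. The scripts were tested on simulated data. Values on all arrays are given for genes past the test or 2-fold apart throughout, others by range and count, and up to 4 genes of each partner list. The genes and lists were chosen with earlier results of these data known.

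Alternatives were normexp (offset 50, on the median spot signal, chosen after the files were seen), quantile normalization, the 75th percentile of probes above background on all arrays, the authors' table, no filter, signal above background required on all 6 arrays, averaging over the probes of a gene, a robust prior with intensity trend, a block for slide row, and each array left out in turn. Leaving out both arrays of day 28 or of day 40 was chosen after seeing the data.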

Additional observations from a re-analysis of the deposited data

Results flagged for a closer look

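The silica arrays of one genotype lay above and those of the other below their untreated array for Rspo4 and Lgr4, both at dim signals, a pattern found in 8.75% of all genes. Rspo4, an R-spondin gene, was at −1.42 and −0.89 in WT (day 28 and day 40 minus untreated) and at 0.09 and 0.90 in Ccr2KO cells. The difference of its responses was 1.65 and did not pass in limma (unadjusted p = 0.0646, adjusted p = 1). Rspo4 was not well above background on the WT silica arrays. Lgr4, a receptor of R-spondins, was at 0.22 and 0.49 in WT cells and at −0.05 and −0.19 in Ccr2KO cells, with a difference of −0.47 (unadjusted p = 0.173, adjusted p = 1).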

How the results depend on the processing

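All 23 genes that passed after silica kept their sign under all 17 alternatives in which they were measured, except Nkd2, which reversed to 0.12 with the mean of a gene's probes. Normexp, quantile normalization and the other percentile kept all 23 calls, the authors' table and the stricter filter 19 of 19 measured, the intensity trend 22, the mean of probes 20 and no filter 16. The genes that rose (12) and fell (11) became 0 and 0, and the 28 partner genes 0, with the slide row as a block and without both day 28 arrays, fits with 1 residual degree of freedom. Falls were 6 with no filter and 6 without both day 40 arrays, where partner calls were 16. The fit without both day 40 arrays also had 1 residual degree of freedom. The genes 2-fold higher in all 4 silica comparisons (8) were 5 with normexp. Those 2-fold lower (3) were 1 with normexp, 1 in the authors' table and 1 with the stricter filter, which left out Wnt3a and Dkk1. Genes 2-fold apart between genotypes on all 3 days (0) were 1 with quantile normalization. The cause was not tested where none is named.

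Leaving out 1 array gave 0 to 12 rises, 0 to 7 falls, 0 to 20 partner calls, 8 to 10 genes 2-fold higher, 3 to 5 genes 2-fold lower, 0 to 2 genes 2-fold apart between genotypes and 0 to 1 genes higher at day 40 than day 28 (Wnt10a). Partner calls were 0 without either day 28 array and 18 without Ccr2KO day 40, and 5 genes were 2-fold lower without the untreated WT array. The genotype term of the 23 genes had adjusted p from 0.127 to 1 over all settings. The response difference could not be fitted with the row block or without an untreated array, and the block and trend fits give no 2-fold counts. With an array left out, the 2-fold counts covered only the comparisons that remained, a looser criterion. No paired analysis was possible because each group had 1 array and the labels give no replicate numbers.

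Pooled RNA on 1 array per group gives no spread between animals. Dim signals set the size of several changes, most in Wnt3a, Dkk1, Frzb and Wnt10a.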
